A study of Mus musculus with 64 samples.

Results

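The aminoacyl-tRNA synthetases were taken from RNA sequencing of mouse pancreatic tumor cells grown alone or with fibroblasts. Members were chosen by symbol, as every gene in the count table named for an amino acid followed by ars, with or without a final digit, together with Eprs, Ears2, Farsa, Farsb and Tarsl2. The choice found 38 genes of the 39017 in the table. Of these, 20 encode cytosolic enzymes or their subunits, 17 end in the digit that marks the mitochondrial enzyme, and Tarsl2, a threonyl-tRNA synthetase-like gene, was kept apart from both classes.

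Aminoacyl-tRNA synthetases join each amino acid to its own tRNA, the step that sets the genetic code. Mammals use separate genes for the cytosolic and the mitochondrial enzyme for most amino acids, whereas Gars and Kars supply both compartments from a single gene and Eprs joins the glutamyl and prolyl enzymes in 1 protein. Mitochondria charge tRNA for glutamine by way of glutamate and an amidotransferase instead of a synthetase. Many cytosolic synthetase genes are known targets of ATF4, the transcription factor of the integrated stress response (ISR) that follows amino acid shortage and endoplasmic reticulum stress.

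The samples were 7 clones, named E, H and V or K, M, N and T below, and the line KPC1, all labeled as murine pancreatic tumor cells of C57BL/6 mixed background. Per the study, the clones came from a single tumor of a KPC mouse, a model driven by Pdx1-Cre in the pancreas and carrying Trp53+/R172H, so that mono-cultured and cocultured cells share its alleles and the clones stand for 1 tumor. The study placed E, H and V in metabolic group 1 and K, M, N and T in group 2 from metabolite profiles, and KPC1 in neither. For every line, 4 libraries represent cells grown alone (mono-culture) and another 4 represent cells grown for 48 h with fibroblasts (coculture) and then recovered by their green fluorescent protein, which gives 64 libraries. The labels do not say whether mono-cultured cells were also sorted, so sorting and coculture cannot be told apart. They do not say either whether the 4 libraries of a line came from separate cultures, so p-values over libraries measure only the spread between these samples.

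Library totals were between 11178721 and 21333683 counts, with a median of 15648009.5. All 38 synthetases passed every filter on low counts, and the lowest count of any of them in any library was 13. Together they took between 0.264% and 0.975% of a library's counts, with a median of 0.492%. The sample numbers at the end of the library names run in 2 series, from 1 to 43 and from 1 to 21, called A and B here. The labels do not say what the series are, and the response over all lines is given within each. In mono-culture all 4 libraries of K were in series B, and all 4 of E, of N and of V were in series A. Series and line therefore cannot be told apart between these mono-cultures. The cocultures of K, N and V held libraries of both series.

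The labeled cell type was compared with marker genes. The simple-epithelium keratins Krt8 and Krt18 were high in every line, at 693 to 1288 CPM (counts scaled to a common library size) and 957 to 1555 CPM in mono-culture, whereas Krt7 was at 0.82 to 11.6 CPM, Cdh1, the epithelial cadherin, ranged from 0.986 to 308 CPM between lines, the epithelial adhesion gene Epcam did not pass 0.371 CPM and the leukocyte gene Ptprc did not pass 0.115 CPM. The summed level of 9 fibroblast markers was 56.9 to 204 CPM in mono-culture, with a median of 86.0 CPM, and 465 to 1021 CPM in coculture, with a median of 723 CPM. All 8 fibroblast markers that could be tested rose in coculture, where 27.2% of all genes were called higher. Of these, Dcn, Fap, Postn and Thy1 did not pass 0.0608 CPM in any mono-cultured line. They could pass the filter on low counts only through coculture, so their rise was fixed in advance. Thy1 was at 0 in all mono-cultured lines but at 6.09 to 16.2 CPM in coculture. Col1a1, Col3a1, Pdgfra and Pdgfrb were present in both cultures and rose by 4.68, 2.85, 1.31 and 1.54 on the log2 scale. Of 5 epithelial markers that could be tested, Krt19 fell by 0.70 on the log2 scale (adjusted p = 0.0024) and Krt8 by 0.51 (adjusted p = 0.0809), and Krt7, Krt18 and Cdh1 did not pass the test. The macrophage gene Cd68 rose as well, from 3.96 to 18.4 CPM in mono-culture to 11.7 to 41.8 CPM in coculture. The endothelial gene Pecam1 went the other way, with a log2 fold change of -1.08 (edgeR adjusted p = 0.0389). Pecam1 did not pass 2.22 CPM in mono-culture or 1.22 CPM in coculture. The changes in the fibroblast markers, Krt8, Krt19, Cd68 and Pecam1 arose in the same comparison of cultures as the synthetase differences given below. The part of these markers in those differences was not tested. In bulk samples a change in the share of a cell type and a change in RNA per cell cannot be told apart.

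In Lars2, 1 library lay far from all others. In replicate 3 of the clone M mono-cultures, Lars2, the mitochondrial leucyl-tRNA synthetase, was at 597 CPM, against 29.3 to 112 CPM in the other 63 libraries and 70.3, 52.9 and 58.5 CPM in the other 3 of that clone and culture. The same library also held 1061 CPM of Gm26917, 2098 CPM of mt-Rnr1 and 4138 CPM of mt-Rnr2, the mitochondrial ribosomal RNAs, where the other 63 libraries did not exceed 34.8, 594 and 1611 CPM. The part of those RNAs in the Lars2 value was not tested, and Lars2 is given below with and without that library.

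**Figure D1:**
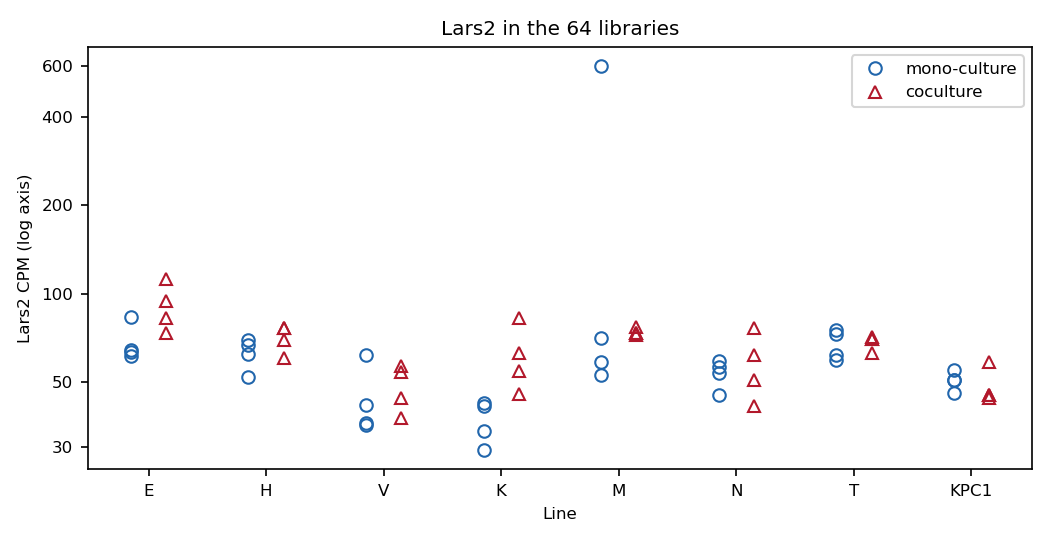
Lars2 level in CPM on a log axis for each of the 64 libraries, with lines along the horizontal axis, open circles for mono-culture and triangles for coculture. Replicate 3 of the clone M mono-cultures sits at 597 CPM and all other libraries lie between 29.3 and 112 CPM.

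Levels of different genes were compared as the deposited RPKM, which scales reads to library size and transcript length, and every RPKM depends on the length that the annotation gives a gene. Cytosolic synthetases were far more abundant than mitochondrial ones. The median over the 20 cytosolic genes was 30.2 RPKM in mono-culture, with a range of 12.6 to 116 RPKM, and the median over the 17 mitochondrial genes was 4.66 RPKM, with a range of 0.547 to 13 RPKM. Nars (asparaginyl) led the order at 116 RPKM, followed by Sars (seryl) at 93.3, Gars (glycyl) at 83.3, Tars (threonyl) at 73.1, Lars (leucyl) at 58.4 and Rars (arginyl) at 53.6 RPKM. Levels of neighbors in this order overlapped across the 8 lines. The lowest levels were those of the mitochondrial Nars2 at 0.547, Mars2 (methionyl) at 0.588, Cars2 (cysteinyl) at 0.778 and Ears2 (glutamyl) at 1.02 RPKM, and the highest mitochondrial level was that of Iars2 (isoleucyl) at 13 RPKM.

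When each mitochondrial enzyme was set beside the cytosolic enzyme for the same amino acid, the cytosolic gene had the higher RPKM in mono-culture in 17 of 17 pairs. The ratio was lowest for Farsa over Fars2, at 1.71, and highest for Nars over Nars2, at 213, with a median of 9.62. In mono-culture asparagine thus had both the highest cytosolic and the lowest mitochondrial level, whereas in coculture the lowest was that of Cars2, at 0.451 RPKM, with Nars2 at 0.936 RPKM. In coculture the cytosolic median was 46.3 RPKM and the mitochondrial median 4.77 RPKM. As a share of all counts, the cytosolic genes had a median of 0.403% over 32 mono-culture libraries and 0.726% over 32 coculture libraries, and the mitochondrial genes 0.0458% and 0.0474%.

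**Figure D2:**
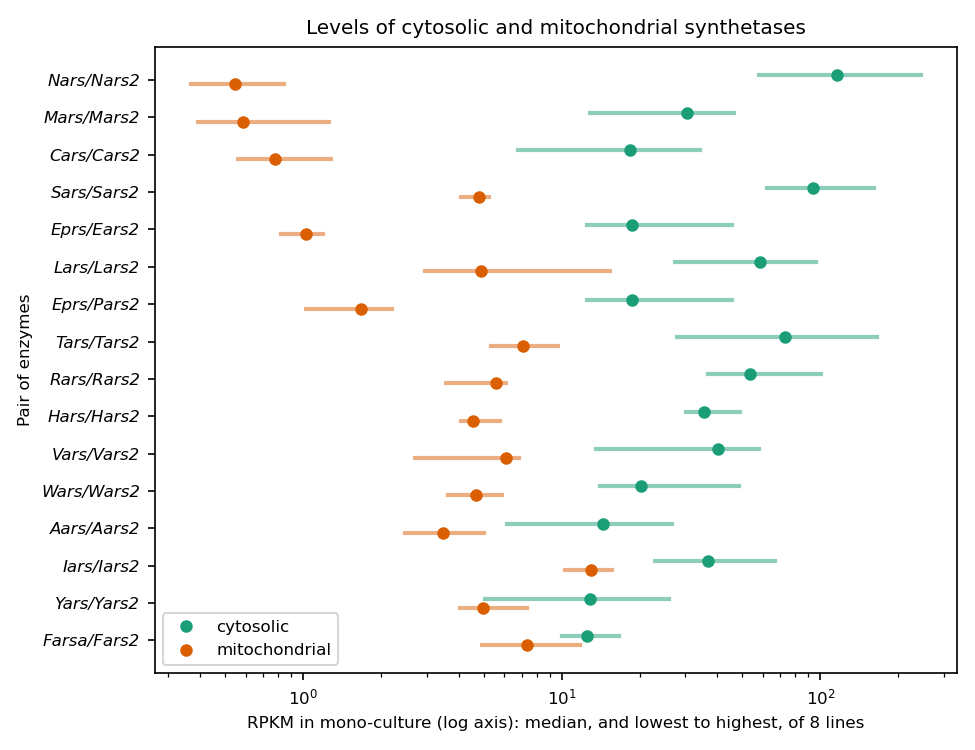
RPKM in mono-culture of each cytosolic enzyme and of the mitochondrial enzyme for the same amino acid, on a log axis, for 16 pairs. Points are medians over the 8 lines and bars run from the lowest to the highest line, and the cytosolic median lies above its mitochondrial partner in every pair drawn, from 1.71 times for Farsa and Fars2 to 213 times for Nars and Nars2.

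Lines differed in their synthetase levels before any coculture, by a larger median fold in the cytosolic class than in the mitochondrial class. Differences between the 8 lines in mono-culture were tested with an edgeR quasi-likelihood F-test on the 64 libraries, with a Benjamini-Hochberg adjusted p under 0.1 as the threshold, which is used throughout. Lines differed in 20 of 20 cytosolic genes, in 16 of 17 mitochondrial genes and in Tarsl2, with Sars2 the exception (adjusted p = 0.121). Against a background of 95.1% of all 14134 genes tested, these counts are close to what any gene showed. The size of the differences was summarized as a fold between the highest and the lowest line, which was not computed over all genes. Its median was 3.38 over the cytosolic genes, with a range of 1.55 to 5.79, and 1.97 over the mitochondrial genes, with a range of 1.25 to 5.07, where the highest value was that of Lars2, whose clone M level holds the library described above. From the mean CPM of the libraries of each line, the Lars2 fold was 5.30 with all libraries and 1.86 without that library.

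Among cytosolic genes, the spread was widest for Tars, Gars, Cars, Yars and Nars, at 5.79, 4.95, 4.94, 4.77 and 4.15 times between lines. For Gars, the glycyl enzyme, mono-culture levels were 285, 247 and 285 CPM in clones E, H and V, 181, 122, 499 and 275 CPM in K, M, N and T, and 605 CPM in KPC1. For Tars, the threonyl enzyme, the values in the same order were 218, 201 and 226 CPM, then 149, 79.6, 322 and 200 CPM, and 461 CPM in KPC1. Both genes were lowest in M and highest in KPC1, with N next. At the other end, Hars (histidyl), Dars (aspartyl) and Qars (glutaminyl) varied by 1.55, 1.60 and 1.72 times.

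The same order recurred across the class. Of 20 cytosolic genes, 15 were lowest in clone M and 5 in clone K, whereas 12 were highest in KPC1, 6 in N, 1 in H and 1 in V. Counts of the highest and lowest lines were not made over all genes, here or below. A class score was computed for each library as the median over members of log2 CPM minus the member's mean over the mono-cultured lines. The cytosolic score in mono-culture was 0.75 ± 0.30 (SD, n = 4 libraries) in KPC1, 0.54 ± 0.31 in N, 0.17 ± 0.066 in H, -0.02 ± 0.31 in T, -0.04 ± 0.21 in V, -0.13 ± 0.14 in E, -0.42 ± 0.17 in K and -0.68 ± 0.15 in M. KPC1 and N overlapped within their SD, as did T, V and E, and the means of K and M were the lowest, although libraries of K overlapped with those of E, V and T. The range of line means was 1.43 for the cytosolic score and 0.37 for the mitochondrial score. Clone K was the lowest line for 7 of the 17 mitochondrial genes, among them Vars2 (valyl), at 16.9 CPM against 30.3 to 39.8 CPM in the other lines.

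**Figure D3:**
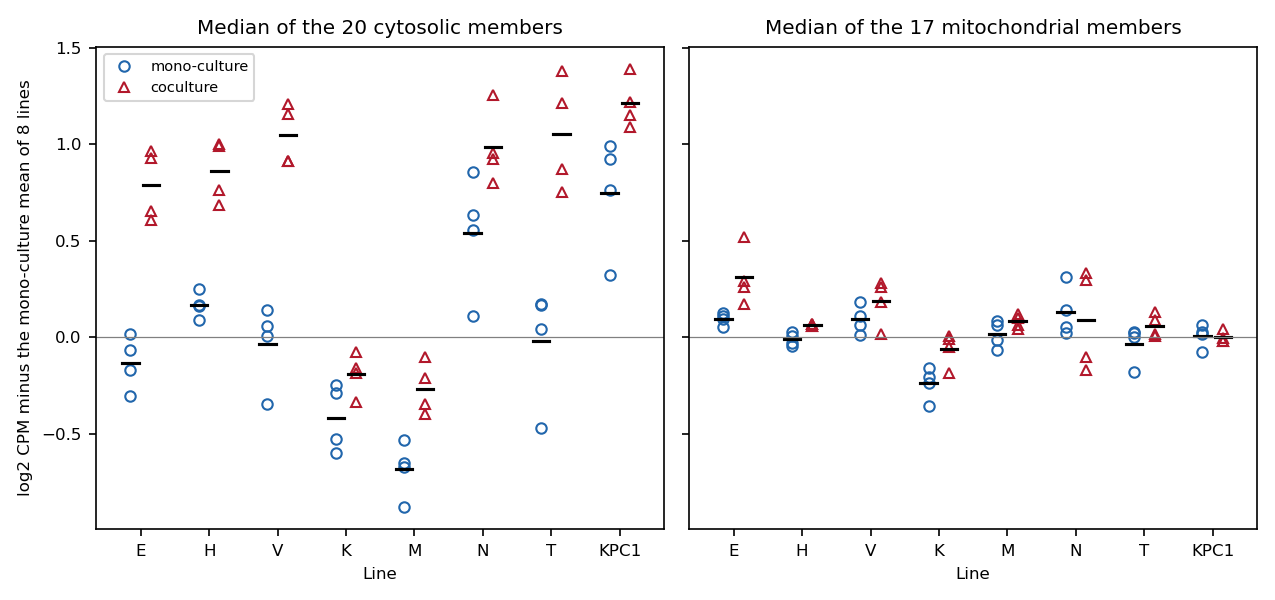
Class score of the cytosolic and of the mitochondrial synthetases in each library, in log2 units relative to the members' mean over mono-cultured lines, for mono-culture and coculture by line. Cytosolic line means run from -0.68 in M to 0.75 in KPC1 in mono-culture and from -0.27 in M to 1.21 in KPC1 in coculture, while mitochondrial line means stay within a range of 0.37 in either culture.

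In coculture with fibroblasts the whole cytosolic class was higher, whereas the mitochondrial class was called about as often as genes in general. The response was tested on counts summed over the 4 libraries of each line and culture, with the line as covariate, so that each of the 8 lines was its own control. All 20 cytosolic genes rose, with a median log2 fold change of 0.70 and a range of 0.11 to 0.86. Of the 17 mitochondrial genes, 6 rose and 3 fell, with a median of 0.03. Over all 14478 genes tested, 54.6% were called, 27.2% higher and 27.4% lower, with a median log2 fold change of -0.000892. Tarsl2 did not pass the test (log2 fold change -0.07, adjusted p = 0.683).

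**Figure D4:**
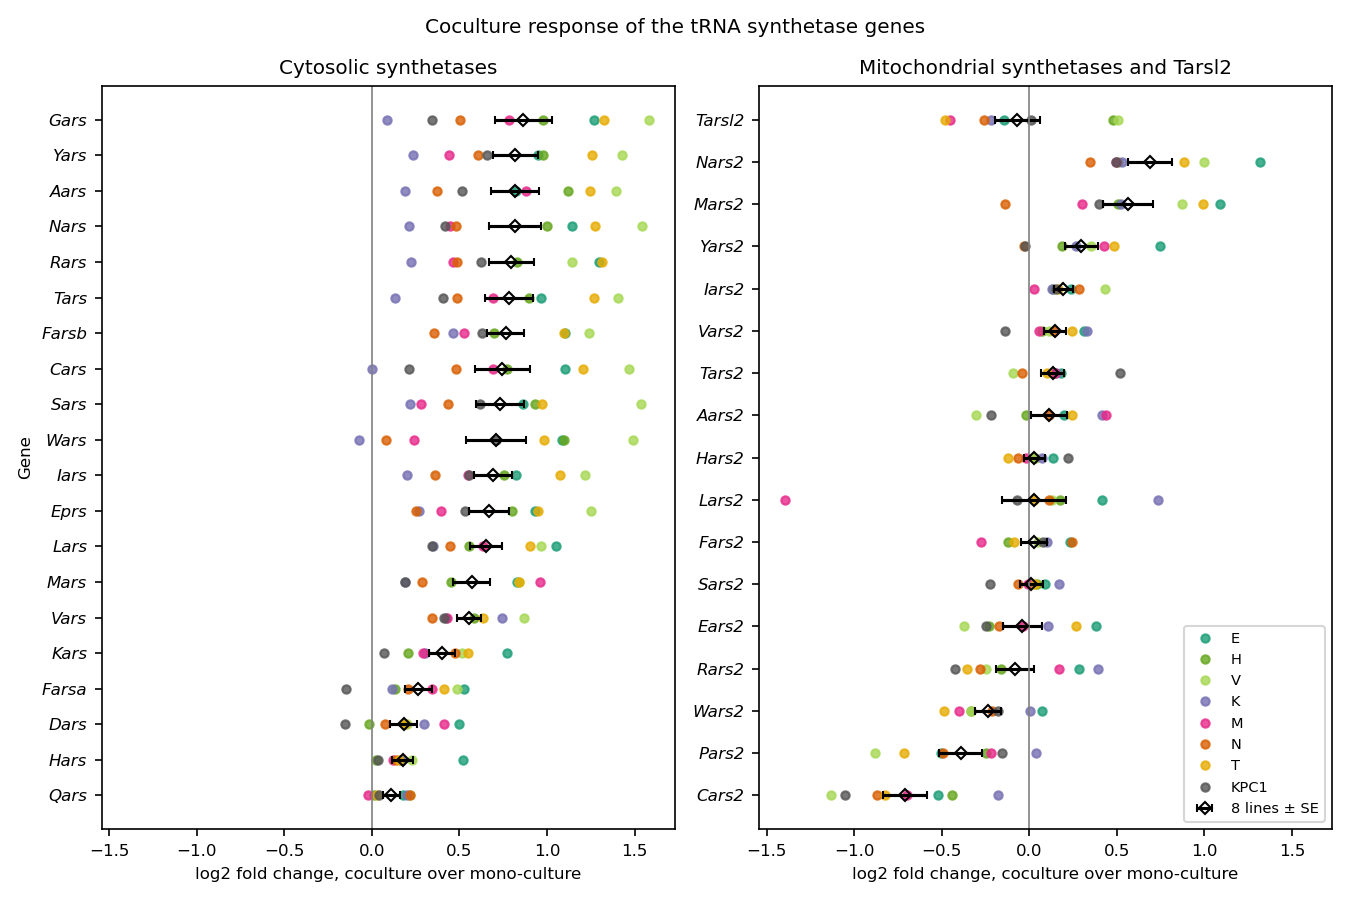
Log2 fold change of each synthetase in coculture against mono-culture. Open diamonds with bars give the value over 8 lines and 1 standard error, and colored points give the response of each line. The diamonds of all 20 cytosolic genes lie above 0, from 0.11 for Qars to 0.86 for Gars, and those of the mitochondrial genes run from -0.71 for Cars2 to 0.69 for Nars2.

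Among cytosolic genes, the smallest p-value was that of Vars, the valyl-tRNA synthetase (chr17:35000987-35016322, plus strand, GRCm38). Its level in the 8 lines was 86.1, 250 and 339 CPM (lowest, median and highest) in mono-culture and 145, 384 and 431 CPM in coculture. Vars was higher in coculture in every line, and the ranges over lines overlapped. Its log2 fold change was 0.56 ± 0.069 (SE, 8 lines), a 1.47-fold rise (edgeR adjusted p = 0.00082).

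Lars, the leucyl-tRNA synthetase (chr18:42202298-42262194, minus strand), is a subunit of the multisynthetase complex and is known as a leucine sensor. It was at 115, 244 and 397 CPM (lowest, median and highest line) in mono-culture and at 181, 430 and 565 CPM in coculture. It too was higher in all 8 lines, with a log2 fold change of 0.65 ± 0.091 (adjusted p = 0.00129).

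Farsb (chr1:78417975-78488897, minus strand) encodes the beta subunit of the phenylalanyl enzyme, a tetramer of alpha and beta subunits. Its levels were 37.4, 54.7 and 97.3 CPM in mono-culture and 51.4, 105 and 147 CPM in coculture, higher in every line, with a log2 fold change of 0.76 ± 0.11 (adjusted p = 0.00131). Farsa, the alpha subunit, rose less, by 0.26 ± 0.075 (adjusted p = 0.0178). The difference between the subunits was not tested.

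Yars (tyrosyl, chr4:129189760-129219607, plus strand) was at 34.2, 84.4 and 163 CPM in mono-culture and at 46.7, 171 and 259 CPM in coculture. Iars (isoleucyl, chr13:49682100-49734267, plus strand) was at 138, 214 and 388 CPM and then at 176, 365 and 583 CPM. Rars (arginyl, chr11:35808381-35834506, minus strand) was at 127, 189 and 341 CPM and then at 176, 387 and 516 CPM. All 3 genes were higher in coculture in each of the 8 lines, and in each of them the highest mono-cultured line exceeded the lowest cocultured line. Their log2 fold changes were 0.82 ± 0.13 (adjusted p = 0.00184), 0.69 ± 0.11 (adjusted p = 0.00193) and 0.80 ± 0.13 (adjusted p = 0.00209).

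The other cytosolic genes gave the rest of the range. Gars showed the largest log2 fold change, 0.86 ± 0.16, or 1.82-fold (adjusted p = 0.00317). Aars, Nars, Tars, Cars, Sars, Wars and Eprs followed at 0.82, 0.82, 0.78, 0.74, 0.73, 0.71 and 0.67, and Mars and Kars at 0.57 and 0.40. The smallest changes were those of Dars, 0.18 ± 0.075 (adjusted p = 0.0727), Hars, 0.18 ± 0.059 (adjusted p = 0.0337), and Qars, 0.11 ± 0.048 (adjusted p = 0.0826). Dars and Qars lost their call in 9 and 10 of 26 alternatives. Aars shares 1326 exon bases with Exosc6 on the same strand, where reads of the genes cannot be told apart by strand. Farsb, Cars and Yars share 248, 211 and 30 exon bases with another gene on the opposite strand, and Mars shares 68 with Ddit3, an ISR gene with a log2 fold change of 1.33. In 15 of the 20 genes the level was higher in coculture in all 8 lines, against 14.2% of all genes tested, and no synthetase had cocultured lines that all lay above all mono-cultured ones, which 1.19% of genes did.

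Every sub-list of the cytosolic class rose throughout, with different medians. The 12 genes listed as ATF4 targets ran from 0.57 to 0.86 on the log2 scale, with a median of 0.74. The other 8 had a median of 0.33 and a range of 0.11 to 0.80, with Rars at the top. The 8 genes of the multisynthetase complex, a cytosolic assembly of several synthetases held by scaffold proteins, had a median of 0.61. No test was made between these lists, and they were drawn up with earlier results of these data known.

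Within series A, which held libraries of both cultures for 7 lines, 17 of 20 cytosolic genes passed the test and all 20 had positive values, with a median of 0.87. Within series B, with 5 lines, 16 passed and all 20 were positive, with a median of 0.55, against 55% and 19.7% of all genes called within the series. The mitochondrial medians within the series were 0.03 and 0.12.

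Promoter sequence was examined because the cytosolic genes moved together. RefSeq promoters (GRCm38.p6, 250 bases before to 50 after the start) matched 28 of the 38 members, and those without an entry included Cars, Hars, Hars2, Lars, Nars, Pars2, Rars, Vars and Wars. The ATF4 site TGATGNAA, on either strand, occurred in 5 of 13 cytosolic promoters (38.5%: Aars, Gars, Iars, Tars and Yars), in 0 of 14 mitochondrial promoters and in 4.51% of 27025 promoters. Stretches of 30 bases around the match that began within 30 bases of the start are shown 5′ to 3′ on the strand of the gene, with the site in capitals, since no other synthetase promoter held the site.
Aars, chr8:111033840-111033869, plus strand: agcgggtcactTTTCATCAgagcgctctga
Gars, chr6:55037960-55037989, plus strand: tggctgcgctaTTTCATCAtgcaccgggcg
Iars, chr13:49682126-49682155, plus strand: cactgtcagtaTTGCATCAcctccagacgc
Tars, chr15:11399659-11399688, minus strand: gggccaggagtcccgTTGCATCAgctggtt
Yars, chr4:129189895-129189924, plus strand: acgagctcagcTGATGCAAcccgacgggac

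The Gars and Tars sites began 30 and 15 bases before the start. The Aars, Iars and Yars sites shown began at bases 10, 8 and 4 of the transcript, counting its first base as 1. In all of these but Yars the site lay on the strand opposite to the gene. Another Aars match, also on the opposite strand, began 112 bases before the start and is not shown. The E-box CACGTG, the site of Myc, occurred in 4 of 13 cytosolic promoters (Aars, Farsb, Iars and Tars), in 1 of 14 mitochondrial promoters (Ears2) and in 8.09% of all promoters. The palindromic NRF1 site occurred in no synthetase promoter and in 1.07% of all. A match describes these letters in these windows and does not show that a factor bound there.

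In the mitochondrial class, the smallest p-value was that of Cars2, the cysteinyl-tRNA synthetase (chr8:11513977-11550783, minus strand). Cars2 was at 3.32, 4.51 and 7.81 CPM (lowest, median and highest line) in mono-culture and at 1.65, 2.79 and 5.38 CPM in coculture. It was lower in coculture in all 8 lines, as were 12.5% of all genes tested, with a log2 fold change of -0.71 ± 0.13, or 0.611 times the mono-culture level (adjusted p = 0.00277). Its exons share 422 bases with Naxd on the other strand.

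Nars2, the asparaginyl enzyme (chr7:96951505-97064758, plus strand), moved the other way. It was at 2.71, 3.84 and 5.66 CPM in mono-culture and at 3.91, 6.44 and 12.3 CPM in coculture, higher in all 8 lines, with a log2 fold change of 0.69 ± 0.12 (adjusted p = 0.00289). Clone E reached the highest coculture level, and 284 exon bases of Nars2 overlap another transcript on the opposite strand. Mars2, the methionyl enzyme (chr1:55237177-55248470, plus strand), was at 2.8, 4.45 and 9.32 CPM and then at 4.03, 7.49 and 9.7 CPM, a log2 fold change of 0.56 ± 0.14 (adjusted p = 0.0107). Clone N, the highest mono-cultured line for Mars2, was the only line in which it was not higher in coculture.

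Iars2 (isoleucyl, chr1:185284726-185329396, minus strand) was higher in every line, going from 104, 124 and 144 CPM to 114, 140 and 175 CPM, with a log2 fold change of 0.19 ± 0.053 (adjusted p = 0.0152). Its exons share 2034 bases with Rab3gap2 on the other strand. Wars2 (tryptophanyl, chr3:99141068-99239186, plus strand) went from 22, 28.8 and 36.5 CPM to 19.4, 24.1 and 29.2 CPM, with a log2 fold change of -0.24 ± 0.073 (adjusted p = 0.0254). In both genes the mono-culture and coculture ranges overlapped.

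Of the remaining mitochondrial genes, Yars2 rose by 0.30, Vars2 rose by 0.15 (adjusted p = 0.0793), a call lost in 12 of 26 alternatives, and Pars2 (prolyl) had a log2 fold change of -0.39 ± 0.12 (adjusted p = 0.0267). Aars2, Ears2, Fars2, Hars2, Lars2, Rars2, Sars2 and Tars2 did not pass the test, with values between -0.08 and 0.13. Lars2 had a log2 fold change of 0.03 (adjusted p = 0.91) with all libraries and of 0.23 (adjusted p = 0.0474) without replicate 3 of the clone M mono-cultures. Tars2 passed the threshold as well without that library, at 0.15 (adjusted p = 0.0843) in place of 0.13 (adjusted p = 0.117), which brought the members called from 29 to 31.

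Pairs of enzymes for the same amino acid were then compared by their log2 fold changes. The cytosolic change was the larger in 16 of 17 pairs. Mars and Mars2 differed by 0.01 and Nars and Nars2 by 0.13, so that asparaginyl and methionyl enzymes rose in both compartments. The widest gaps were 1.45 for Cars over Cars2 and 1.06 for Eprs over Pars2, where the cytosolic gene rose and the mitochondrial one fell. These differences were not tested.

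Genes that act beside the synthetases were tested in the same fit, where 27.2% of all genes were called higher and 27.4% lower. All 3 scaffolds of the multisynthetase complex rose, Eef1e1 by 0.72, Aimp2 by 0.42 and Aimp1 by 0.19. In the mitochondrial route to glutaminyl-tRNA, the amidotransferase subunits Qrsl1 and Gatc rose by 0.76 and 0.33, and Gatb was not analysed here. Of 9 mitochondrial translation factors, 4 rose and 1 fell, with elongation factors Tsfm and Gfm1 at 0.29 and 0.27 and the initiator-tRNA formyltransferase Mtfmt at 0.25. These 5 of 9 are close to the 54.6% called over all genes. Of 5 cytosolic elongation factors, 3 rose, again near that share, Eef1g, Eef1b2 and Eef1d, by 0.19, 0.16 and 0.15. In a list of tRNA proofreading and export genes, 1 of 4 rose, the tRNA exporter Xpot, by 0.66. Of 9 ISR markers 8 rose, with a median over the list of 1.01, led by p-value by the asparagine synthetase Asns at 1.30, the kinase-like Trib3 at 1.48 and the serine hydroxymethyltransferase Shmt2 at 0.98, while Eif2ak4, the kinase that senses uncharged tRNA, was at 0.09 and did not pass.

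The size of the response differed between lines. An F-test over the 8 responses called 19 of 20 cytosolic genes (Qars, adjusted p = 0.214, was the exception), 14 of 17 mitochondrial genes and Tarsl2, against a background of 71.3% of 14134 genes. The 8 lines gave 160 combinations of line and cytosolic gene, of which 118 were called higher and 0 lower. For the mitochondrial genes there were 136 combinations, of which 35 were called higher and 20 lower. Over all genes, 12.5% (K) to 32.1% (E) were called higher in a single line, and 8.02% (K) to 31.5% (V) lower.

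Clone V had the largest median cytosolic log2 fold change, 1.23, with 20 of 20 genes called higher, where 30% of all genes were. Clones T, E and H followed, with medians of 0.98, 0.90 and 0.76 and 17, 20 and 16 genes called, against 31.5%, 32.1% and 21.4% of all genes. Clone M had a median of 0.44 with 16 called, KPC1 0.41 with 11 called and N 0.37 with 13 called, against 21.6%, 20.1% and 20% of all genes. Clone K had the smallest median, 0.21, with 5 called against 12.5% of all genes. No cytosolic gene was called lower in any line. The mitochondrial genes called higher and lower were 8 and 2 in E, 5 and 5 in V, 6 and 4 in T, 3 and 1 in H, 3 and 4 in M, 2 and 2 in N, 3 and 2 in KPC1 and 5 and 0 in K. Over all genes, 29.2%, 31.5%, 30.7%, 22.6%, 17.3%, 17.4%, 19% and 8.02% were called lower in these lines in the same order.

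Of the 20 cytosolic genes, 13 had their largest change in V and 5 in E, and 10 had their smallest change in K. The summed fibroblast markers in coculture were highest in K, at 1021 CPM, and lowest in E, at 465 CPM, and their part in the order of the lines was not tested.

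Vars alone was called in 8 of 8 lines, from 0.34 in N to 0.87 in V, and its change in K was 0.75. The share of all genes called in a given number of lines was not computed, so the line counts given here have no background. Gars moved from 0.08 in K to 1.58 in V and was called in 6 lines. Wars, the tryptophanyl enzyme, which interferon is also known to induce, was called in E, H, V, T and KPC1, at 0.71 to 1.49, but was at -0.07, 0.24 and 0.08 in K, M and N. Among mitochondrial genes, Nars2 was called in 7 lines, with clone N the exception at 0.34, Cars2 was called lower in 6 lines and was not called in H and K, Iars2 was called in 6 lines and Mars2 in 5. Tarsl2 was called higher in H and V, at 0.48 and 0.50, and lower in M and T, at -0.45 and -0.48. In clone M, Lars2 had a log2 fold change of -1.39 ± 0.35 (adjusted p = 0.00167) with all libraries and 0.30 (adjusted p = 0.20) without replicate 3 of its mono-cultures.

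**Figure D5:**
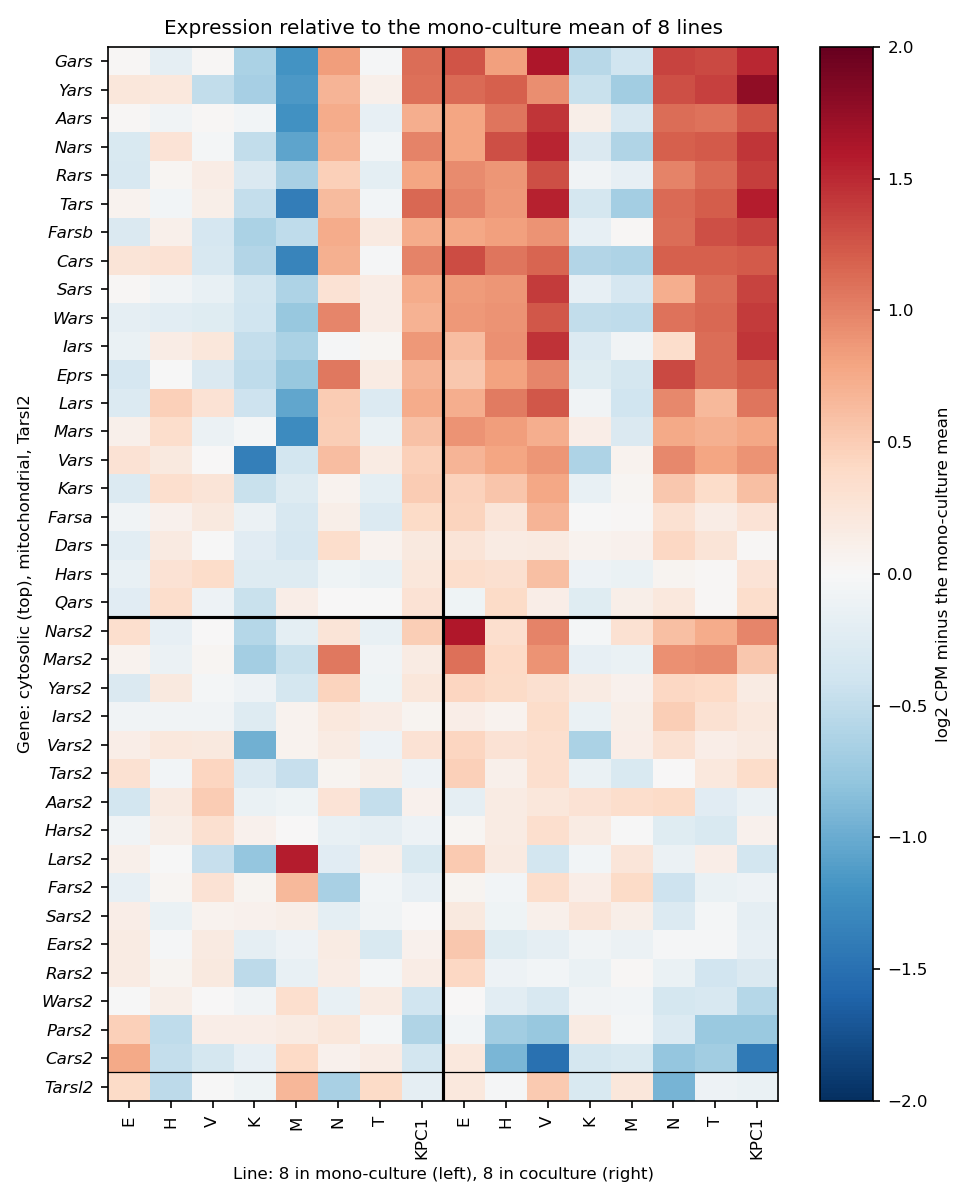
Level of each synthetase as log2 CPM minus its mean over the 8 mono-cultured lines, on a color scale from -2 (blue) to 2 (red), with mono-cultured lines on the left, cocultured lines on the right, and cytosolic genes, mitochondrial genes and Tarsl2 from top to bottom. Most cytosolic genes are low in K and M in both cultures and high in the other 6 lines in coculture, and Lars2 is high in mono-cultured M, at 186 CPM over 4 libraries.

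In coculture the order of the lines by cytosolic score was KPC1 at 1.21 ± 0.13 (SD, n = 4), T at 1.05 ± 0.29, V at 1.05 ± 0.16, N at 0.98 ± 0.19, H at 0.86 ± 0.16, E at 0.79 ± 0.18, K at -0.19 ± 0.11 and M at -0.27 ± 0.13. K and M lay below the other 6 lines by more than the spread between libraries, and neighbors among T, V, N, H and E overlapped. Of 20 cytosolic genes, 12 were lowest in M and 7 in K, and 9 were highest in V and 5 in KPC1.

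The study's groups were compared over clones, 3 of group 1 against 4 of group 2. In mono-culture no synthetase was called, and no gene at all of 14829 (0%), with 766 genes and 0 synthetases at an unadjusted p under 0.05. DESeq2 called 159 genes and 0 synthetases. The cytosolic log2 differences, group 1 minus group 2, had a median of 0.10 and were positive in 16 of 20 genes. Over all 14829 genes the median was -0.01 and 7204 were positive. No synthetase had groups that did not overlap, which 2.18% of all genes did with group 1 higher and 3.2% with group 1 lower. The smallest cytosolic p-values were those of Hars, at 0.37 ± 0.16, Kars (lysyl), at 0.32 ± 0.20, Iars, at 0.33 ± 0.21, and Farsa, at 0.21 ± 0.16. Among mitochondrial genes they were those of Tars2, at 0.36 ± 0.20, Vars2, at 0.33, Rars2, at 0.25, and Lars2, at -0.56, which became 0.10 without the clone M library that stood apart.

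In coculture no synthetase passed the test either. The median cytosolic difference was 0.47, positive in 19 of 20 genes. Over all 14737 genes the median was -0.006 and 7285 were positive. The 20 genes were read on the same 7 clones, so their signs are not independent. Of the 14737 genes, 1 was called (0.00679%), which was not a synthetase, and 1263 were at an unadjusted p under 0.05. DESeq2 called 215 genes and 0 synthetases. Hars, the histidyl-tRNA synthetase, was at 98.4, 97.0 and 118 CPM in E, H and V and at 72.2, 70.4, 80.1 and 78.1 CPM in K, M, N and T. It was the only synthetase whose groups did not overlap, where 4.42% of all genes did not overlap with group 1 higher and 4.68% with group 1 lower, and its log2 difference was 0.47 ± 0.14 (adjusted p = 0.581). Hars shares 195 exon bases with Hars2 on the other strand, and Hars2 had a difference of 0.28.

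Farsa, Kars and Lars had differences of 0.35, 0.39 and 0.63. Lars was at 396, 492.6 and 569 CPM in group 1 and at 229, 181, 468 and 375 CPM in group 2, where K and M were lowest and N lay within the range of group 1. Nars2 differed by 0.64, with 12.3, 5.17 and 8.11 CPM in group 1 and 3.95, 5.0, 6.19 and 6.76 CPM in group 2, so that the groups overlapped. Tars2 and Vars2 differed by 0.36 and 0.33.

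The difference in coculture response between the groups was tested as an interaction. No synthetase was called, and 1 gene of 15700 was (0.00637%), with 1196 genes at an unadjusted p under 0.05. DESeq2 called 191 genes and 0 synthetases. The cytosolic median was 0.41, positive in 19 of 20 genes. Over all 15700 genes the median was -0.02 and 7458 were positive. Wars had the smallest cytosolic p-value, with a difference in response of 0.90 ± 0.26 (adjusted p = 0.597), followed by Sars at 0.63, Eprs at 0.51 and Nars at 0.61, and these 4 and Tarsl2, at 0.64 ± 0.20 (adjusted p = 0.637), were the 5 synthetases at an unadjusted p under 0.05. In mono-culture Wars was at 77.3, 75.2 and 72.4 CPM in group 1 and at 66, 51.5, 170 and 96.6 CPM in group 2, and in coculture at 159, 165 and 209 CPM and at 62.8, 61.3, 186 and 194 CPM. The values of K and M in coculture were near those in mono-culture, while T in group 2 rose within its own libraries, as did E, H and V. All comparisons of the groups share the same 7 clones, and none of their differences passed the test with 3 against 4 clones.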

How the data were processed

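RNA was sequenced from 64 libraries of 8 lines in 2 cultures. The authors deposited whole-number read counts for 39017 genes without normalization, and RPKM for 49585 genes. The submitters' processing notes name featureCounts, edgeR and the build mm10; versions, the aligner and whether counting used strand are not given in the sources used here. In this family 15 members share exon bases with another gene in GENCODE M21.

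Libraries were grouped by the line and culture in their labels, and clones by the study's metabolic groups. Counts were tested with the quasi-likelihood test of edgeR 4.0.16 (R 4.3.3) after TMM scaling and filterByExpr, with Benjamini-Hochberg adjustment over all genes tested and a threshold of 0.1. Line sums of 4 libraries were used over lines and groups, and 1 fit of all 64 libraries within lines. CPM used TMM scaling, and log2 CPM a prior count of 0.5. DESeq2 1.42.0 and limma 3.58.1 on log2(RPKM + 1) were alternatives. Within a line and culture no library was a copy of another: over 96 pairs, the chi-square per gene was 4.29 to 62.6. Libraries of different lines or cultures were not compared in this way.

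Up to 6 genes of each class with the smallest p-values were given in full in each comparison, up to 4 for the groups and up to 3 for other lists; further genes were named after their values were seen. Members and lists were chosen with earlier results of these data known. Some items are not reported here. Scripts were tested on simulated data.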

Additional observations from a re-analysis of the deposited data

Results flagged for a closer look

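Among 111 sets of 8 line values examined, 9 held a value far from the rest, where chance gives about 1 in 20, or 5.5. Among mono-cultured lines, clone M stood apart in Mars, at 47.4 CPM against 104 to 170 CPM in the other lines, in Aars, at 70.8 CPM against 146 to 273 CPM, and in Lars2, at 186 CPM against 36.7 to 67.1 CPM. Clone K stood apart in Vars2, at 16.9 CPM in mono-culture against 30.3 to 39.8 CPM, and at 21.2 CPM in coculture against 35.7 to 43.9 CPM. In coculture, Ears2 was at 8.01 CPM in clone E against 4.67 to 5.44 CPM.

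Among the responses of the lines, Hars had a log2 fold change of 0.52 in clone E against 0.02 to 0.23 in the others. Tars2 had 0.52 in KPC1 against -0.09 to 0.18. Lars2 had -1.39 in clone M against -0.07 to 0.74.

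Groups of 4 libraries were examined for Lars2 alone, after its outlying library had been seen, so their number is not set against chance. Of 16 groups, 4 held such a value. Lars2 was at 597 CPM in replicate 3 of the clone M mono-cultures against 52.9 to 70.3 CPM, and at 83.5 CPM in replicate 2 of the clone E mono-cultures against 61.4 to 64.2 CPM. In coculture it was at 62.8 CPM in replicate 4 of clone T against 69.9 to 71.2 CPM, and at 58.2 CPM in replicate 3 of KPC1 against 44.1 to 45 CPM.

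The coculture response differed between lines, by the F-test over the 8 responses, in 19 of 20 cytosolic and 14 of 17 mitochondrial synthetases, and in 71.3% of all 14134 genes tested.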

How the results depend on the processing

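The cytosolic rise kept its direction in all 20 genes under all 26 alternatives to the test over 8 lines, and 16 genes also kept their call. Dars, Qars, Hars and Farsa lost it in 9, 10, 2 and 1 of them, and the mitochondrial Vars2 in 12. With each line or replicate left out in turn, 18 to 20 cytosolic and 8 to 11 mitochondrial genes were called, and the medians ran from 0.61 to 0.78 and from 0.016 to 0.12. Within lines, 118 cytosolic and 55 mitochondrial calls became 102 to 115 and 41 to 56 with a replicate left out, and 102 to 130 and 41 to 66 over all 9 alternatives. Lines differed in 36 to 37 members in mono-culture and in 24 to 33 in response. The group comparison in mono-culture called 0 members in 20 of 22 alternatives, and the exceptions are given below. The other group comparisons called 0 members each time. On series B alone, 3 mitochondrial genes were called in place of 9, with 5 lines in place of 8.

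Replicate numbers were not treated as pairs, since the labels give them no shared origin and not every correlation of deviations between same-numbered libraries exceeded 0.1. The correlations ran from -0.069 to 0.29, and 18 of 32 exceeded 0.1. Of 32 mono-culture libraries, each set beside the 4 cocultures of its line, 24 correlated best with their own number. This is a sign of pairing that the labels do not give, and the main tests within lines leave it out. The cytosolic score of replicate 4 was the lowest of the mono-cultures in E, H, M, T, V and KPC1, but not in K and N. The replicate block gave 30 members called over 8 lines in place of 29, and within lines 8 in place of 5 cytosolic calls in K, 8 in place of 5 mitochondrial calls in K and 8 in place of 4 in N. In mono-culture, the groups gave 8 synthetases when libraries counted as replicates, where 31.8% of all 12347 genes tested were called. They gave 6 with the replicate block, where 29.3% of all genes were called. Both settings treat libraries of 1 clone as independent.

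Over 8 lines, values that turned sign were near 0. Sars2 over 8 lines was -0.012 without line K, between -0.018 and 0.061 with a replicate left out (-0.013 without replicate 4), -0.00039 with the replicate block and -0.065 on series A. Lars2 was -0.029 and -0.073 without lines E and K, -0.012 without replicate 1, -0.095 on series A, 0.26 on series B and 0.23 without the clone M library. Fars2 was -0.0004 and -0.0015 without lines E and N, -0.0018 and -0.013 without replicates 1 and 3 and 0.080 without replicate 4. Ears2 was 8.4e-05, 0.0086 and 0.0044 without lines H, V and KPC1, -0.098 without E, and Tarsl2 was 0.014 on series B. Between groups in mono-culture, Lars2 turned from -0.56 to 0.15 without line M, 0.095 without replicate 3 and 0.096 without that library alone, with a lowest value of -0.83 without replicate 2. Its response in clone M turned from -1.39 to 0.29 and 0.30, with a lowest value of -1.70 without replicate 2. Except for that library, the cause was not tested. The alternatives that left out single libraries or used 1 number series were chosen after seeing the data. Each member had at least 13 counts in every library. The groups were compared with 3 against 4 clones, and what limited their calls was not tested.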
